A study of Mus musculus with 12 samples.

Results

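The genes described here encode the machinery that docks, primes and fuses synaptic vesicles, together with the related SNARE proteins that fuse membranes elsewhere in the cell. Members were chosen by gene symbol and family. The rule held no measured values, but it was chosen with earlier results of these data known. It took synaptobrevins and other VAMPs (Vamp), syntaxins (Stx), and the SNAP-25 family (Snap23, Snap25, Snap29, Snap47) with the coat adaptor Snap91. It also took syntaxin-binding proteins (Stxbp), synaptotagmins (Syt), synaptotagmin-like proteins (Sytl), RIMs (Rims), Munc13 proteins (Unc13), complexins (Cplx) and synapsins (Syn). The members comprised 78 transcript clusters of 68 genes, of 21218 transcript clusters (18820 genes) that carried 1 gene symbol. A transcript cluster is the set of array probes summarised as 1 gene-level value, and all values are log2 intensities. Unc13c had 7 clusters, and Unc13a, Stxbp4, Syt4 and Sytl5 had 2 each, so clusters of 1 gene are not independent measurements.

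The arrays compared mice given phosphatidylserine (PS), a membrane phospholipid, with mice given its vehicle, medium-chain triglycerides (MCT), in heart and in cerebrum. The question was how PS alters transcript levels in FD mice, which model familial dysautonomia, a hereditary neuropathy that strikes the autonomic and sensory nervous systems. There were 3 arrays in each of the 4 groups: heart PS, heart MCT, cerebrum PS and cerebrum MCT. PS mice received 200 mg/kg by gavage and MCT mice the vehicle alone, in 100 µl each time. Dosing began at 4 months of age and was repeated on alternate days for 3 months. Every array of every group, vehicle included, is labelled with the genotype humanized knock-in IKBKAP FDloxP/+ and the strain C57BL/6J, so no array of these groups is labelled wild type. The growth protocol, however, speaks of 3 FD and 3 wt mice, whereas the design text speaks of 6 FD mice, and the source names give the dose per day. Replicates are described as biological, with no statement on whether equal numbers in heart and cerebrum mark the same animal.

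The groups differed in sex-linked transcripts. Xist, the RNA that coats the inactive X chromosome of females, was 9.55, 3.32 and 9.86 in the cerebrum PS arrays and 3.77, 3.34 and 3.62 in the cerebrum MCT arrays. It was 8.92 to 9.13 in heart PS and 3.40 to 4.03 in heart MCT. Treatment and this sex pattern therefore cannot be told apart in heart, and in cerebrum PS 2 is the only PS array with the male pattern. Heart PS 2, at 9.13, did not share it. The neuron marker list (10 of 12 genes measured) averaged 10.16 to 10.22 in cerebrum PS and 10.13 to 10.23 in cerebrum MCT, against 5.21 to 5.50 in heart PS and 5.11 to 5.27 in heart MCT. The ventricular muscle list (7 of 8 genes measured) averaged 12.16 to 12.25 in heart PS and 12.07 to 12.28 in heart MCT, so both tissue labels matched their markers. In bulk tissue, fewer cells of a type and less RNA per cell cannot be told apart.

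At a synapse, a VAMP on the vesicle zips together with a syntaxin and a SNAP-25 protein on the plasma membrane, and the resulting SNARE complex pulls the membranes into contact. Munc13 proteins open syntaxin and prime the vesicle, RIMs hold it at the active zone beside calcium channels, complexins clamp the partly assembled complex, and synaptotagmins trigger fusion when calcium enters. Synapsins tether the reserve vesicles. Other SNARE family members, found in nearly all cells, drive traffic among the Golgi, endosomes, lysosomes, autophagosomes and cell surface, including delivery of the glucose transporter GLUT4 to the surface of muscle cells.

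Promoter sequences from RefSeq (GRCm38.p6) were present for 52 of the 68 genes, as 64 promoters, and were searched on both strands over the 250 bases before the start that the RefSeq table lists. Shown are Unc13c and Sytl5, the genes with the largest falls in cerebrum under PS, and Syn1 and Snap23, which lay far apart between heart and cerebrum in opposite directions. Each is given 5′ to 3′ on the strand of its gene. Capitals mark a GC box (GGGCGG or its complement) in Unc13c. In Syn1 they mark the left part of a REST element (TTCAGCACC) and a cyclic AMP response element (TGACGTCA). In Snap23 they mark the reverse complement of an NRF1 core (GCGC, any base, then TGCGC).
Unc13c: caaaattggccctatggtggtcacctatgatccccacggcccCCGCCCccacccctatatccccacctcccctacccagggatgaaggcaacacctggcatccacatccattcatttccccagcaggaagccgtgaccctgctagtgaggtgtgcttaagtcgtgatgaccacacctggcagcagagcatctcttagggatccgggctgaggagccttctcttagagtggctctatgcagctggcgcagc
Sytl5: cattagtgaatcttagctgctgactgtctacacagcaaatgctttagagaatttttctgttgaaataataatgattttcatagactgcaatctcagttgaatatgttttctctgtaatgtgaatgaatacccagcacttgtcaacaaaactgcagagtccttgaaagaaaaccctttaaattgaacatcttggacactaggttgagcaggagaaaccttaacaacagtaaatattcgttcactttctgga
Syn1: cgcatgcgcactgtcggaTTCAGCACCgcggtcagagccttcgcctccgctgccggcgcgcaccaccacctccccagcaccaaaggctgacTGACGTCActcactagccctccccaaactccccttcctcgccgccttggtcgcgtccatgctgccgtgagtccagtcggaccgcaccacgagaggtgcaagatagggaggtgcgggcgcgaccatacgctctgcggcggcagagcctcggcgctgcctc
Snap23: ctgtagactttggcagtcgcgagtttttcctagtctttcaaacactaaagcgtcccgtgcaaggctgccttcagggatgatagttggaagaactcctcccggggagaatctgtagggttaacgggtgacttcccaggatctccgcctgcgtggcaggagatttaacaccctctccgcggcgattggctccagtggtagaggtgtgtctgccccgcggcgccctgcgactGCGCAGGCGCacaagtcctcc
They lie at chr9:73969038-73969287 on the minus strand (Unc13c), chrX:9885371-9885620 on the plus strand (Sytl5), chrX:20920919-20921168 on the minus strand (Syn1) and chr2:120567421-120567670 on the plus strand (Snap23). The Unc13c, Sytl5 and Snap23 entries belong to starts inside the annotated gene spans, so they are not the outermost starts of these genes. Those spans are chr9:73479422-74008155 (Unc13c), chrX:9747622-9998864 (Sytl5) and chr2:120567655-120601255 (Snap23). The Sytl5 promoter held 35.2% G and C and 1 CpG, whereas those of Unc13c, Syn1 and Snap23 held 58.8%, 68.0% and 58.4% with 6, 27 and 17 CpGs. Of the 64 member promoters, only that of Syn1 held TTCAGCACC, which 0.301% of all 32851 promoters held. The NRF1 core stood in 6 member promoters, those of Snap23, Snap29, Snap47, Stx12, Stx2 and Stxbp5, against 3.738% of all promoters, and the GC box in 37, against 32.742%. The palindrome TGACGTCA stood in the promoters of Stxbp3 and Syn1 and in 1.546% of all promoters, TATAAA in those of Stx2 and Stx3 and in 12.368%, and the E-box CACGTG in 8 member promoters and in 6.021%. These are matches of letters only, and occupancy by any factor was not measured.

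In cerebrum, PS mice had lower Unc13c and Sytl5 than MCT mice, and higher Stxbp6, Cplx3, Rims4, Syt12 and Syt13. No syntaxin, VAMP, SNAP or synapsin passed the test there. Of the 78 clusters, 68 passed the filter on low values and 13 differed between the treatments (limma, Benjamini-Hochberg adjusted p under 0.05 over all transcripts), 5 higher and 8 lower, which is 19.1% of those tested. Among all 12733 transcripts tested the share was 5.76%, with 1.83% higher and 3.93% lower. With 1 cluster per gene, 7 of 59 genes differed (11.9%), against 5.91% of all genes. The median difference was 0.015 over the 68 tested members and -0.03 over all tested transcripts. The count rested on single arrays. It was 0 without PS 1, without MCT 1 or without MCT 2, 5 without PS 2, 9 without MCT 3 and 23 without PS 3, while the calls among all transcripts were 0, 0, 2, 145, 615 and 1557. With each array centred on its median, the split was 3 higher and 9 lower. With no filter, 7 of 78 passed (clusters of Unc13c, Sytl5 and Stxbp6), against 2.42% of all transcripts.

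Unc13c, which encodes the vesicle-priming factor Munc13-3 and is known mainly from cerebellar neurons, had the largest differences. Its cluster with the lowest p, 10594969, read 6.40, 6.28 and 6.68 in PS cerebrum, against 8.05, 8.12 and 7.61 in MCT cerebrum. The difference was -1.47 ± 0.16 (SE, adjusted p = 0.0136). All PS arrays lay below all MCT arrays, by a gap wider than the range within either group. The other Unc13c clusters behaved alike, with differences between -1.56 and -1.85, and 5 of those 6 passed the test. The exception, cluster 10594971, had 5.39, 4.06 and 5.80 in PS and 7.0, 7.38 and 6.41 in MCT (-1.85 ± 0.44, adjusted p = 0.053). Taken relative to the MCT mean, the median over the 7 clusters was -1.60, -2.15 and -1.13 in PS 1, 2 and 3 and 0.03, 0.37 and -0.39 in MCT 1, 2 and 3.

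**Figure D1:**
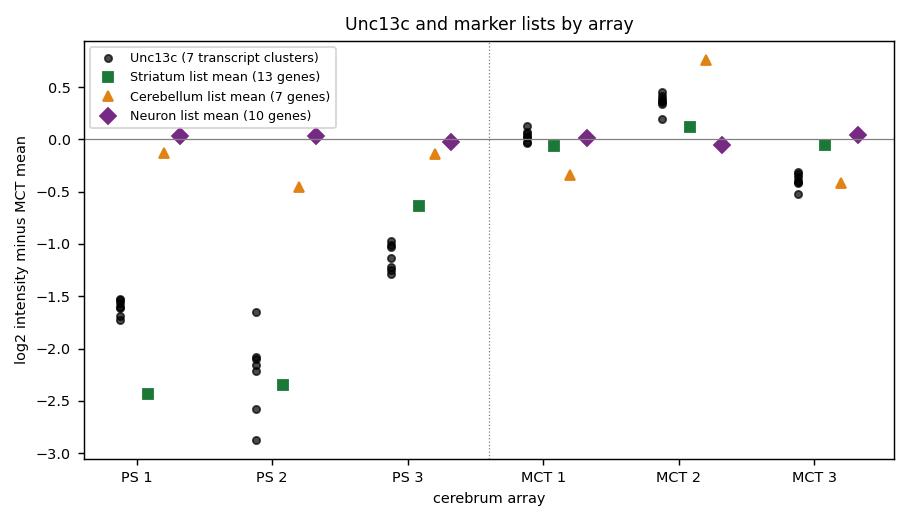
Log2 intensity minus the mean of the 3 MCT arrays in each cerebrum array, for the 7 Unc13c transcript clusters (black points) and for the mean of the striatum, cerebellum and neuron marker lists. Unc13c is below zero in all PS arrays, least in PS 3, while the striatum list is low in PS 1 and PS 2 and nearer the MCT level in PS 3, and the neuron list stays near zero.

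Several marker lists of brain regions moved with these arrays. The striatum list (13 of 15 genes measured) averaged 7.02, 7.11 and 8.82 in PS 1, 2 and 3, against 9.40, 9.57 and 9.40 in MCT 1, 2 and 3, and 4 of its 13 genes passed the test, all lower (Tac1, Rarb, Scn4b and Syndig1l). In the myelin list 3 of 10 genes were lower, with means of 7.85 to 8.22 in PS and 8.42 to 9.01 in MCT. In the cerebral cortex list 2 of 10 were higher, with means of 8.39 to 8.88 in PS and 8.02 to 8.40 in MCT. Among all tested transcripts 1.83% were higher and 3.93% lower. The cholinergic list averaged 4.08 to 4.62 in PS and 5.33 to 5.82 in MCT, and both of its tested genes were lower, whereas 0 of 10 neuron genes passed. The thalamus list averaged 6.78 to 7.05 in PS and 7.07 to 7.92 in MCT, with MCT 2 highest, and 0 of 8 genes passed. Means of the hypothalamus list overlapped, at 5.34 to 6.12 in PS and 5.55 to 6.53 in MCT. Of its 6 tested genes 1 passed, Sst, which was higher in PS. All 8 endothelium genes had positive differences, with means of 6.25 to 6.84 in PS and 6.00 to 6.48 in MCT, and 0 passed. Because Unc13c is known from cerebellum, 7 cerebellar genes were also examined, chosen after values had been seen. They averaged 4.55, 4.23 and 4.53 in PS 1, 2 and 3, against 4.34, 5.44 and 4.26 in MCT 1, 2 and 3, so only MCT 2 stood out. Gabra6, a receptor subunit of cerebellar granule cells, was 4.07, 3.32 and 3.73 in PS and 3.52, 5.98 and 3.35 in MCT. Not every gene of the list rose in MCT 2: Barhl1 was 4.0, 4.44 and 4.53 in PS and 4.11, 4.37 and 4.52 in MCT. Pcp2, En2, Fat2 and Barhl1 read at most 4.82 on any cerebrum array, below the filter value of 5.04. The part of regional composition in the member differences was not tested.

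Sytl5 encodes a tandem C2 domain protein that binds Rab27 on secretory organelles. Its cluster 10603573 was 5.19, 4.94 and 5.45 in PS cerebrum and 6.51, 6.47 and 6.37 in MCT cerebrum (-1.26 ± 0.13, adjusted p = 0.0136). The second cluster, 10598603, was 5.55, 5.57 and 6.07 in PS and 6.81, 6.93 and 6.73 in MCT (-1.09 ± 0.15, adjusted p = 0.0212). In both clusters all PS arrays were below all MCT arrays. Sytl5 lies on the X chromosome, and PS 2, the PS array with the male pattern, read 4.94 and 5.57 in its clusters. The part of sex in the Sytl5 difference was not tested. Of the other synaptotagmin-like genes only Sytl2 passed the filter, at 7.58, 7.84 and 6.72 in PS and 7.60, 7.26 and 7.48 in MCT, and its groups overlapped.

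Among the genes that were higher, Stxbp6 encodes amisyn, a syntaxin-binding protein that can occupy the VAMP position in a SNARE complex. It was 9.42, 9.31 and 9.24 in PS cerebrum, against 8.94, 8.83 and 8.89 in MCT cerebrum (0.44 ± 0.08, adjusted p = 0.0363). Cplx3, a complexin known from the ribbon synapses of the retina, was 6.05, 6.19 and 5.67 in PS and 5.34, 5.2 and 5.29 in MCT (0.69 ± 0.14, adjusted p = 0.0383). Rims4, a short RIM that keeps only the last C2 domain, was 7.43, 7.62 and 7.13 in PS and 6.65, 6.67 and 6.89 in MCT (0.66 ± 0.14, adjusted p = 0.0424). In these 3 genes no PS array fell within the MCT range, and PS 3 was the PS array nearest to it. Syt12 and Syt13 are synaptotagmins whose C2 domains lack the residues that bind calcium. Syt12 was 7.87, 8.04 and 7.73 in PS and 7.32, 7.25 and 7.52 in MCT (0.52 ± 0.11, adjusted p = 0.0443). Syt13 was 9.74, 9.87 and 9.36 in PS and 9.03, 8.96 and 9.10 in MCT (0.63 ± 0.13, adjusted p = 0.0443). PS arrays were again all above MCT arrays for both genes, with PS 3 the lowest of the PS arrays.

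**Figure D2:**
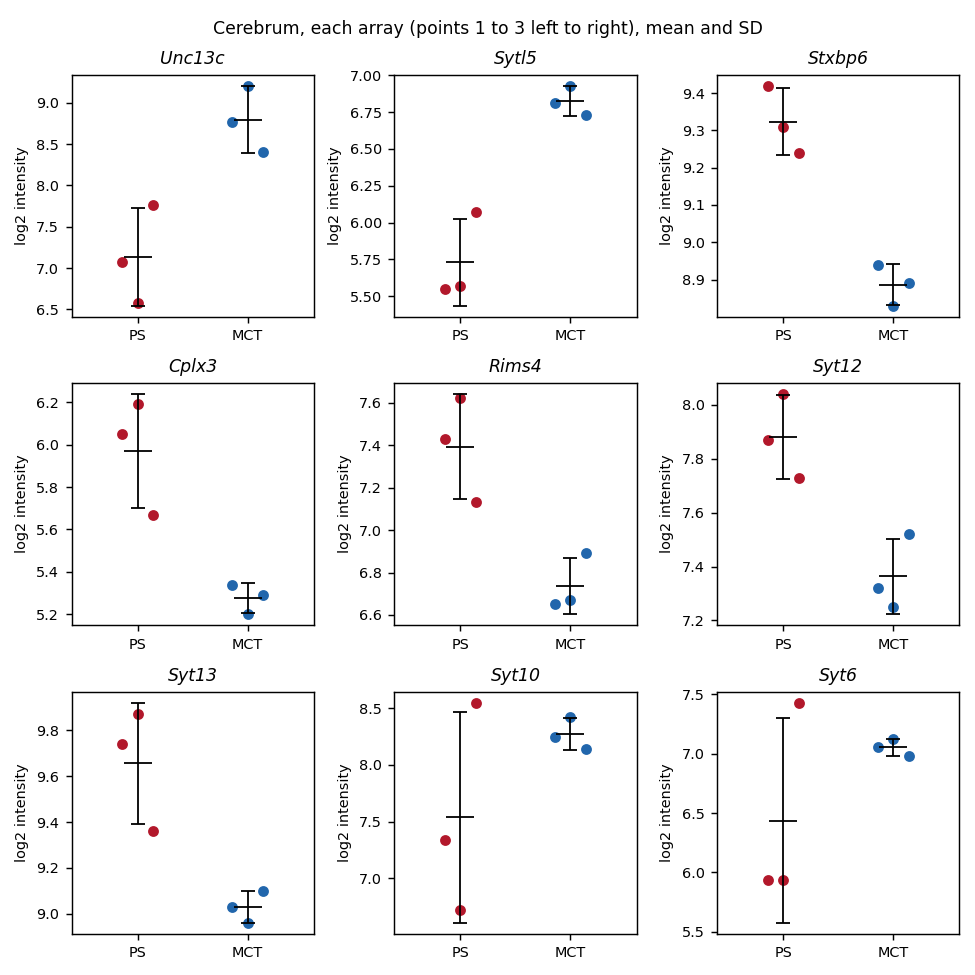
Log2 intensity of 9 members in each cerebrum array, PS left and MCT right, with group mean and SD. For Unc13c and Sytl5 the cluster with the highest MCT mean is drawn. PS and MCT points do not overlap in the first 7 panels, whereas for Syt10 and Syt6 the third PS array lies above the MCT points.

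The members next in order of p did not pass. Vamp7, a VAMP of late endosomes and growing neurites, was 8.34, 8.38 and 8.34 in PS and 8.74, 8.66 and 8.52 in MCT (-0.29 ± 0.08, adjusted p = 0.0789). Syt9, a fast calcium sensor of limbic and striatal neurons in mice, was 5.74, 5.61 and 6.52 in PS and 6.77, 7.25 and 6.45 in MCT (-0.87 ± 0.28, adjusted p = 0.0944), with PS 3 inside the MCT range. The Golgi syntaxin Stx5a differed by -0.22 ± 0.07 (adjusted p = 0.0964). Differences for Unc13a and Unc13b were positive. Unc13b, which encodes the widely expressed Munc13-2, was 6.82, 6.87 and 6.51 in PS and 6.38, 6.03 and 6.47 in MCT (0.44 ± 0.14, adjusted p = 0.101). Unc13a, the principal priming factor of glutamate synapses, differed by 0.63 ± 0.21 in cluster 10579550 (adjusted p = 0.109) and by 0.20 ± 0.13 in cluster 10579554 (adjusted p = 0.340). Unc13d, the Munc13-4 of blood cells, was 4.14 to 4.20 in PS and 4.14 to 4.22 in MCT, below the filter.

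A pair of synaptotagmins split the PS arrays. They were chosen after their values had been seen. Syt6 was 5.94, 5.94 and 7.43 in PS cerebrum and 7.06, 7.12 and 6.98 in MCT cerebrum. Syt10, which serves secretion of a growth factor in olfactory neurons, was 7.34, 6.72 and 8.55 in PS and 8.25, 8.42 and 8.14 in MCT. In both genes PS 1 and PS 2 lay below every MCT array and PS 3 above every one. The striatum list was lowest in PS 1 and PS 2, but in PS 3 it was also below every MCT array (8.82, against 9.40 to 9.57). Neither gene passed the test (limma, adjusted p = 0.306 and 0.265). The SD among PS arrays was 0.86 for Syt6 and 0.93 for Syt10, against 0.07 and 0.14 among MCT arrays.

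Among the core genes of the synapse, Snap25, Syt1, Vamp2, Stx1a and the synapsins did not pass the test in cerebrum. Snap25 was 12.44, 12.38 and 12.37 in PS cerebrum and 12.33, 12.30 and 12.39 in MCT cerebrum, a difference of 0.06 (95% interval -0.11 to 0.23). Syt1, the main calcium sensor for fast release, was 12.16, 12.11 and 12.05 in PS and 11.91, 11.74 and 12.09 in MCT, and the interval of the difference was -0.05 to 0.43. For Vamp2, the synaptic VAMP, all PS arrays (11.79 to 11.92) were above all MCT arrays (11.65 to 11.74), with a difference of 0.17 ± 0.08 (adjusted p = 0.189). Stx1a, the plasma membrane syntaxin, was 9.14, 9.15 and 8.64 in PS and 8.52, 8.25 and 8.91 in MCT (0.42 ± 0.20, adjusted p = 0.209). Differences for the synapsins were 0.15 (Syn1), 0.02 (Syn2) and 0.11 (Syn3), and the groups overlapped for all 3. Over the 12 tested syntaxins the median was -0.075, and over the 15 tested synaptotagmin clusters it was 0.14. The groups did not overlap for 26 of the 68 tested members, 11 with PS above and 15 with PS below, while the background was 32.8% of all tested transcripts (12.4% above and 20.4% below). The Syt4 clusters were the only ones of a gene in cerebrum to differ in sign, at 0.14 for 10457942 and -0.05 for 10454441, which was below the filter.

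In heart, no member differed between PS and MCT. Of the 78 clusters, 41 passed the filter and 0 were past the threshold in limma, against 0.33% of the 12736 transcripts tested, and 6 members had an unadjusted p under 0.05. The median difference was 0.083 over the tested members and 0.06 over all. Members with groups that did not overlap numbered 7 with PS above and 0 with PS below, against 28.4% of all tested transcripts in either direction (17.2% above and 11.2% below). Without heart MCT 3, however, 6 members passed, of Stxbp4 (both clusters), Stx3, Vamp4, Vamp8 and Stx8, beside 3416 of all transcripts. That array had the highest Myl7, an atrial myosin light chain, at 8.53, whereas MCT 1 and 2 had 4.37 and 5.08 and the PS hearts 4.16, 4.17 and 6.80. In a comparison added after the data were seen, without both PS 3 and MCT 3, 1 member passed (Stx3). The part of atrial tissue in these differences was not tested.

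The lowest p in heart belonged to Stxbp4, whose product Synip binds syntaxin 4 and has been studied in GLUT4 traffic. Cluster 10389795 was 7.03, 7.17 and 7.27 in PS heart and 6.45, 6.77 and 6.58 in MCT heart (0.56 ± 0.13, adjusted p = 0.121). Cluster 10389797 was 6.11, 6.24 and 6.21 in PS and 5.70, 5.86 and 5.92 in MCT (0.36 ± 0.12, adjusted p = 0.148). Every PS heart was above every MCT heart in both clusters. Stxbp5, which encodes tomosyn, an inhibitor that competes with VAMPs, was 7.31, 7.37 and 7.09 in PS and 6.70, 6.95 and 6.98 in MCT (0.38 ± 0.14, adjusted p = 0.166). Syn2 was 5.18, 5.55 and 5.30 in PS and 5.10, 4.56 and 4.42 in MCT (0.65 ± 0.20, adjusted p = 0.137), close to the filter value of 4.935. The plasma membrane syntaxin Stx2 was 7.26, 7.82 and 7.35 in PS and 7.18, 7.05 and 7.02 in MCT (0.39 ± 0.16, adjusted p = 0.203). Stx2, Stxbp5 and Syn2 also showed no overlap, with PS above. The endothelium list moved the same way, with all 8 genes measured, means of 8.92 to 9.17 in PS hearts and 8.14 to 8.71 in MCT hearts and 0 of 8 past the test. Its part in the member values was not tested.

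Most other heart members near the top of the list overlapped between the groups. Stx3, a syntaxin of apical membranes, was 6.40, 6.38 and 6.01 in PS and 5.72, 5.53 and 6.21 in MCT. Vamp8, a VAMP of endosomes and secretory granules, was 8.64, 8.42 and 8.39 in PS and 9.08, 9.03 and 8.47 in MCT. In both, MCT 3 lay with the PS arrays, apart from MCT 1 and 2. Vamp4 showed the same arrangement, at 7.96, 7.98 and 7.86 in PS and 8.62, 8.27 and 7.91 in MCT, and so did the endosomal syntaxin Stx8, at 8.01, 7.80 and 7.84 in PS and 8.29, 8.35 and 7.91 in MCT. For Rims3 and Rims4 it was MCT 2 that lay with the PS arrays: Rims4 was 5.81, 5.66 and 5.56 in PS and 6.13, 5.61 and 6.41 in MCT. Vamp5, a VAMP of muscle, differed by 0.27 ± 0.13 (adjusted p = 0.258), and the endoplasmic reticulum syntaxin Stx18 by 0.19 ± 0.11 (adjusted p = 0.305), with all PS arrays above all MCT arrays for Stx18. Snap25 was below the filter in heart, at 5.08, 4.40 and 5.08 in PS and 4.06, 4.31 and 3.97 in MCT, values chosen for mention after they had been seen.

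**Figure D3:**
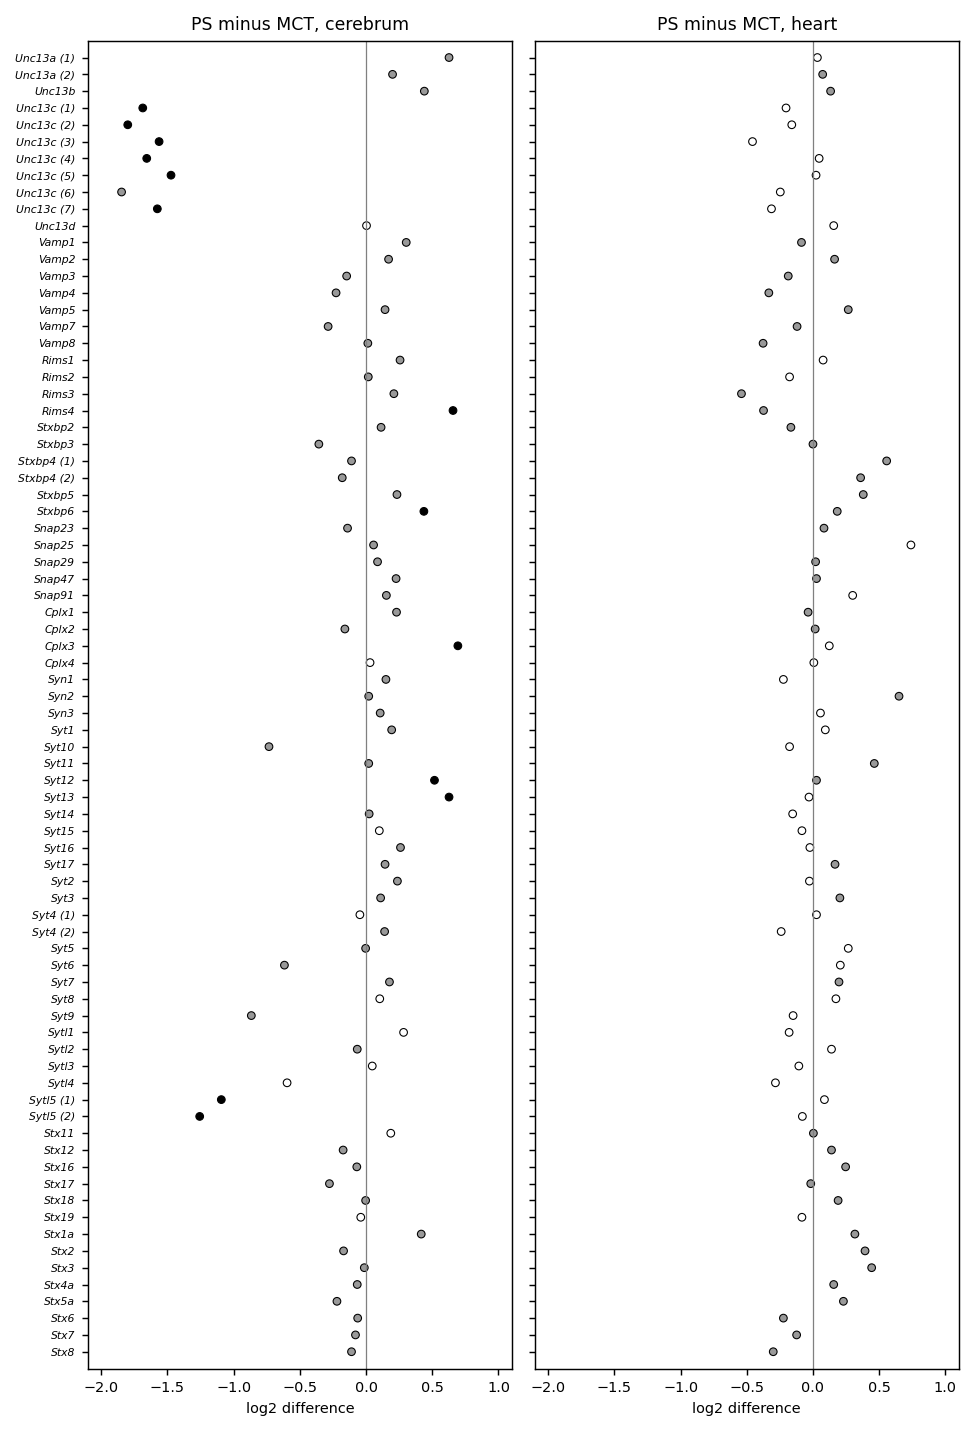
Difference in log2 intensity, PS minus MCT, for all 78 transcript clusters in cerebrum (left) and heart (right). Black points passed the adjusted threshold, grey points were tested and did not pass, and open points were below the filter. The Unc13c and Sytl5 clusters stand far left in cerebrum, and no point is black in heart.

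In the contrast of PS effects between the tissues, clusters of Unc13c passed, as did 1 cluster of Stxbp4 with the filter on low values. In a fit over all 12 arrays, 4 of 64 tested members had a larger PS effect in heart than in cerebrum, on the signed scale, and 0 had a smaller one (6.25%, against 1.52% of all 12731 tested transcripts and 1.1% in that direction). With 1 cluster per gene, 2 of 57 genes passed (3.51%), against 1.52% of all genes. This contrast uses the same arrays as the comparisons within each tissue. Of the Unc13c clusters, 3 passed, with differences of 1.50 ± 0.24 for 10594969 (adjusted p = 0.0156), 1.48 ± 0.28 for 10594948 (adjusted p = 0.0275) and 1.70 ± 0.38 for 10594967 (adjusted p = 0.0487). In heart, cluster 10594969 was 5.01, 4.77 and 4.42 in PS and 4.67, 4.74 and 4.72 in MCT. All 7 clusters were between 2.07 and 5.11 in heart and below the heart filter. Those tested in this contrast passed its filter through cerebrum alone, so it gives no separate measure of Unc13c in heart. The fourth, Stxbp4 cluster 10389795, differed by 0.67 ± 0.15 (adjusted p = 0.0494): its PS effect was 0.56 in heart and -0.11 in cerebrum, and neither passed within its tissue. The other Stxbp4 cluster, 10389797, was also tested in this contrast and did not pass. Both Sytl5 clusters had differences of 1.18, but their means over all arrays were below the filter. With no filter, again 4 clusters passed, but they were 2 of Unc13c and both of Sytl5 (adjusted p = 0.0279 for 10598603 and 0.0227 for 10603573), and Stxbp4 did not. Stxbp4 cluster 10389795 passed in 4 of its 18 alternatives. The PS effect on Rims4 was -0.37 in heart and 0.66 in cerebrum (-1.03 ± 0.26, adjusted p = 0.0707), and those on Syt13 and Syt12 differed by -0.66 and -0.49 without passing. The count of 4 fell to 0 without cerebrum PS 1 and without cerebrum MCT 1, to 1 or 2 without cerebrum PS 2, cerebrum MCT 2, heart MCT 1 or any heart PS array, and reached 8 without heart MCT 3 and 11 without cerebrum PS 3.

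Between the tissues, most members were lower in heart, in PS and MCT mice alike. In both treatments 8 genes were higher there: Snap23, Snap29, Stx2, Stx4a, Stx17, Vamp3, Vamp5 and Vamp8. In PS mice, 63 members were tested and 59 differed, 9 higher and 50 lower in heart, which is 93.7% of those tested, against 75.9% of all tested transcripts (38.3% higher and 37.6% lower). MCT mice, on separate arrays, had 62 of 66 past the threshold, 9 higher and 53 lower, against 75.5% of all (35.2% higher and 40.3% lower). A member that passes the filter through 1 tissue alone had to differ, so these shares lend no weight. With no filter and all 78 clusters tested, 12 were higher and 57 lower in PS mice (69 in all), against 30.6% and 25.9% of all 21218 transcripts (56.5% in all). In MCT mice 12 were higher and 56 lower (68 in all), against 34.4% and 27.8% (62.2% in all). The median over all 78 clusters was -1.73 in PS mice and -2.08 in MCT mice.

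Snap25 and Stx1a are the plasma membrane SNAREs of the synapse. Snap25 was 5.08, 4.40 and 5.08 in PS heart, against 12.44, 12.38 and 12.37 in PS cerebrum (-7.54). In MCT mice it was 4.06, 4.31 and 3.97 in heart and 12.33, 12.30 and 12.39 in cerebrum (-8.23). Its mean over the 6 heart arrays was below the heart filter, so the test was met through cerebrum alone and the sizes are given as a description. The same holds for Syt1, Syn1, Syn3, Snap91, Rims1, Rims2 and Unc13c below. In heart, Cplx1, Cplx2 and Unc13a cluster 10579554 also averaged below the filters of the tissue fits, 5.22 in PS mice and 5.232 in MCT mice. So did Stx1a and Syn2 in MCT mice and Rims3 in PS mice, and their differences are likewise a description. Stx1a was lower in heart, with differences of -3.72 in PS mice and -3.62 in MCT mice. Its heart levels were 5.11 to 5.45 in PS and 4.26 to 5.41 in MCT, against 8.64 to 9.15 in PS cerebrum and 8.25 to 8.91 in MCT cerebrum. Snap23, the form that takes the place of SNAP-25 outside neurons, ran the opposite way, at 10.89 to 10.93 in PS heart and 8.59 to 8.95 in PS cerebrum (2.18 ± 0.11, adjusted p = 1.09e-06). In MCT mice Snap23 was 10.74 to 10.88 in heart and 8.75 to 9.09 in cerebrum (1.95 ± 0.13, adjusted p = 1.20e-06). Snap29, which acts in autophagosome fusion, was higher in heart by 0.36 in PS mice and 0.43 in MCT mice, and Snap47 lower, with differences of -1.97 in PS mice and -1.77 in MCT mice.

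The VAMPs divided evenly, and in the same way in both treatments. Vamp8, Vamp5 and Vamp3 were higher in heart, with differences of 2.56, 1.87 and 1.37 in PS mice and 2.95, 1.75 and 1.41 in MCT mice. Vamp3, or cellubrevin, recycles endosomes, and its arrays read 9.22 to 9.42 in PS heart and 7.81 to 8.04 in PS cerebrum. Vamp1, Vamp2 and Vamp4 were lower, with differences of -3.27, -1.99 and -1.11 in PS mice and -2.88, -1.98 and -1.0 in MCT mice. Vamp2 nonetheless read 9.86 to 9.89 in PS heart and 9.58 to 9.96 in MCT heart, well over the heart filter. Vamp7 did not pass in either treatment (-0.20 and -0.37).

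**Figure D4:**
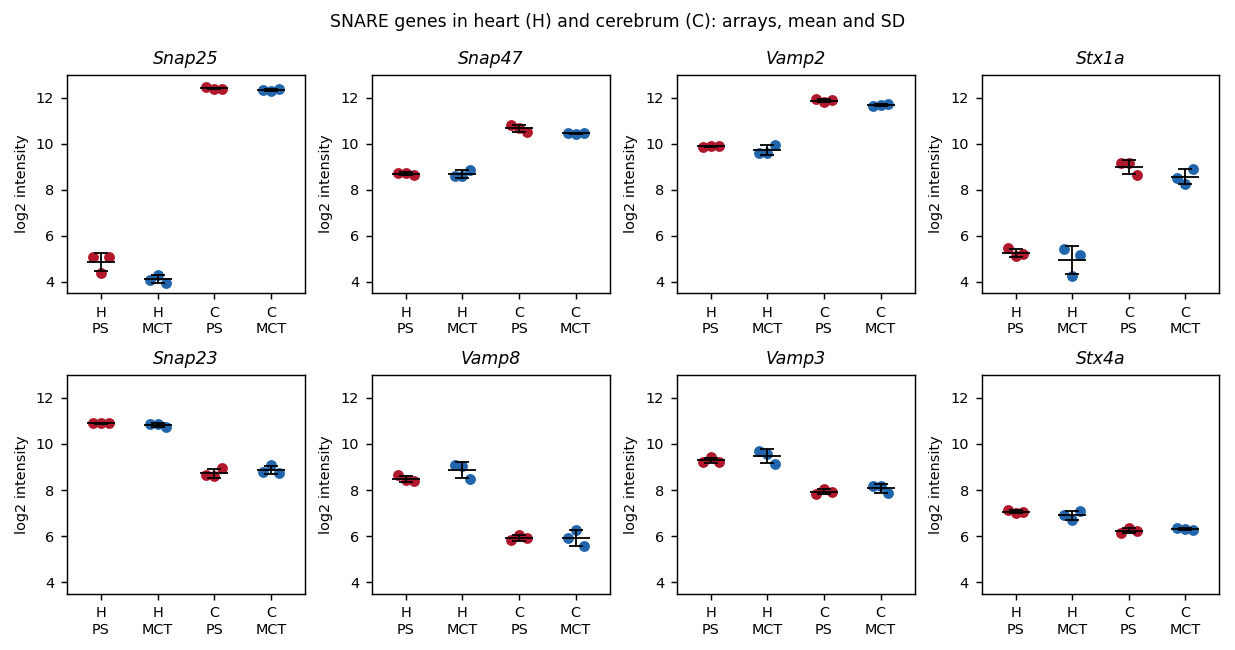
Log2 intensity of 8 SNARE genes in each array of heart (H) and cerebrum (C), PS left of MCT within each tissue, with group mean and SD. The genes of the top row are lower in heart and those of the bottom row higher in heart, in PS and MCT mice alike.

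Among syntaxins, Stx4a, Stx2 and Stx17 were higher in heart in both treatments. Stx4a, the muscle and fat cell syntaxin of GLUT4 delivery, read 7.01 to 7.13 in PS heart and 6.15 to 6.35 in PS cerebrum (0.82 ± 0.09). In MCT mice it read 6.71 to 7.10 in heart and 6.28 to 6.33 in cerebrum (0.60 ± 0.12). Stx17, which marks autophagosomes ready to fuse, differed by 0.83 in PS mice and 0.57 in MCT mice, and Stx2 by 0.97 and 0.41. Stx6, Stx7, Stx12 and Stx16, which serve endosomes and the trans-Golgi, were lower in heart in both treatments, with differences of -0.52 to -1.35 in PS mice and -0.55 to -1.29 in MCT mice. Stx5a differed by -0.09 in PS mice and -0.54 in MCT mice, and Stx8 by 0.21 in PS mice and 0.40 in MCT mice. Both passed in MCT mice alone, and the difference between treatments was not past the threshold for either. Stx11 and Stx19 were higher in heart in the test with no filter but read at most 5.58 on any array.

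Of the syntaxin-binding proteins, Stxbp6 and Stxbp5 were lower in heart, with differences of -2.44 and -1.77 in PS mice and -2.19 and -1.91 in MCT mice. Both Stxbp4 clusters were lower in heart, less so in PS mice (-0.94 and -0.44) than in MCT mice (-1.61 and -0.98), which is the contrast given above for cluster 10389795. Stxbp3, the widely expressed Munc18c, was 7.51 to 7.89 in PS heart and 6.83 to 7.33 in PS cerebrum (0.66 ± 0.16, adjusted p = 0.00651). In MCT mice its difference was 0.30 ± 0.13 and did not pass (adjusted p = 0.0622). The difference between treatments was not past the threshold for Stxbp3. Stxbp2, or Munc18b, was lower in heart, with differences of -0.99 in PS mice and -0.71 in MCT mice.

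**Figure D5:**
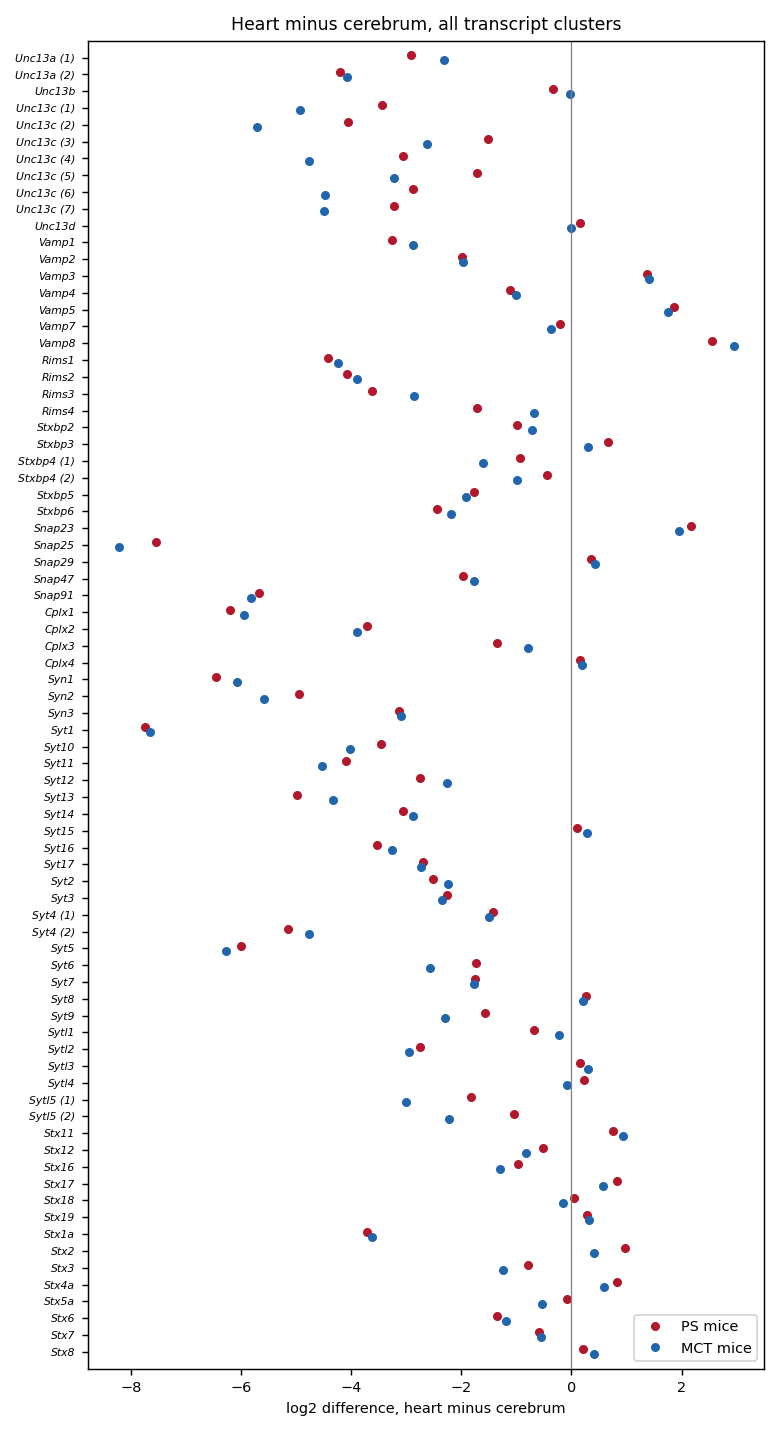
Difference in log2 intensity, heart minus cerebrum, for all 78 transcript clusters in PS mice (red) and MCT mice (blue). Most points lie left of zero, the farthest being Snap25 and Syt1, and those at right are led by Vamp8, Snap23, Vamp5 and Vamp3.

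Calcium sensors, complexins and synapsins were lower in heart almost throughout. Syt1 was 4.25 to 4.45 in PS heart and 12.05 to 12.16 in PS cerebrum, a difference of -7.76. In MCT mice its difference was -7.66. Without the filter, 16 of the 18 synaptotagmin clusters were lower in heart in each treatment, and the differences for all 18 ran between -7.76 and 0.27 in PS mice and between -7.66 and 0.29 in MCT mice. The 2 others were Syt8 and Syt15, both at most 4.73 on any array. Syt7, a slow sensor that also serves membrane repair, was 6.30 to 6.79 in PS heart and 8.15 to 8.57 in PS cerebrum. Syt11, which binds no calcium, was 6.97 to 7.70 in PS heart and 11.21 to 11.46 in PS cerebrum. Cplx1 and Cplx2 were lower, with differences of -6.21 and -3.71 in PS mice and -5.95 and -3.89 in MCT mice. Syn1, Syn2 and Syn3 differed by -6.46, -4.95 and -3.14 in PS mice and -6.08, -5.58 and -3.09 in MCT mice. Snap91, the AP180 adaptor that rebuilds vesicles with clathrin, differed by -5.68 in PS mice and -5.83 in MCT mice.

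Active zone genes followed suit. Rims1, Rims2 and Rims3 were lower in heart, with differences of -4.42, -4.09 and -3.62 in PS mice and -4.24, -3.89 and -2.87 in MCT mice. For Rims4 they were -1.72 and -0.69. Unc13a cluster 10579554 differed by -4.2 in PS mice and -4.07 in MCT mice. Unc13b, in contrast, was 6.31 to 6.51 in PS heart and 6.51 to 6.87 in PS cerebrum (-0.34 ± 0.12, adjusted p = 0.0349). Its difference was -0.03 in MCT mice (95% interval -0.39 to 0.33), and the difference between treatments was not past the threshold. For the Unc13c clusters, heart minus cerebrum ran between -1.51 and -4.07 in PS mice and between -2.62 and -5.71 in MCT mice.

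Genes of the same pathway outside these families were examined as lists, chosen with earlier results of these data known. Of other vesicle and active zone proteins, 36 were tested in cerebrum, 0 were higher and 2 lower, a share close to the 5.76% of all tested transcripts. Sv2c, a vesicle glycoprotein of basal ganglia neurons, was 7.02, 7.34 and 7.89 in PS and 8.23, 8.25 and 8.52 in MCT (-0.92 ± 0.21, adjusted p = 0.0487). Rab27a, a small GTPase that binds synaptotagmin-like proteins, was 5.36, 5.44 and 5.53 in PS and 5.99, 6.07 and 5.93 in MCT (-0.55 ± 0.08, adjusted p = 0.0261). PS and MCT arrays did not overlap for either gene. The list's median was 0.11, against -0.03 for all tested transcripts, and its mean level was 8.78 to 8.88 in PS and 8.79 to 8.89 in MCT. Of the other SNAREs and the fusion ATPase, 17 were tested in cerebrum, and 1 passed, again close to that share: Bet1, a SNARE between endoplasmic reticulum and Golgi, was 6.48, 6.24 and 6.47 in PS and 7.12, 7.10 and 6.88 in MCT (-0.64 ± 0.11, adjusted p = 0.0318). In heart 0 of 20 and 0 of 16 genes of these lists passed between PS and MCT. Between heart and cerebrum, 3 of 36 vesicle and active zone genes were higher and 32 lower in PS mice, and 3 higher and 33 lower in MCT mice. Of the 17 other SNAREs and fusion ATPase genes, 3 were higher and 11 lower in PS mice, and 2 higher and 11 lower in MCT mice. The shares over all tested transcripts were 75.9% in PS mice (38.3% higher and 37.6% lower) and 75.5% in MCT mice (35.2% higher and 40.3% lower). Only 20 vesicle and active zone genes passed the filter of the heart comparison. Many of the 36 were thus tested through cerebrum alone and had to differ, so the counts of that list lend no weight.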

How the data were processed

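RNA from both tissues was purified on RNeasy Plus Mini columns, biotin-labelled and hybridised to Affymetrix arrays, as the labels' protocols state. The submitters' processing notes name Affymetrix Expression Console; version, background correction and summary method were not stated. The values the authors deposited were read as log2 intensity: they span 1.9 to 13.11, above the 11.1 that a natural log of a 16-bit scan could reach. Array medians were 4.89 to 5.00 and nothing further was normalized, so a global shift could not be seen.

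Symbols came from the platform annotation, and 1 cluster shared by Stxbp3 and its pseudogene was left out. limma 3.58.1 in R 4.3.3 (lmFit, eBayes) was fitted to all single-symbol clusters whose mean reached the 40th percentile for that fit, adjusted by Benjamini-Hochberg at 0.05, and tested on simulated data. Named were members past the threshold, filled to 12 per treatment comparison by lowest p, the largest tissue differences per family, genes whose clusters disagree, and a few more to complete a family. Members, lists and tests were chosen with earlier results of these data known. The number of arrays limits precision.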

Additional observations from a re-analysis of the deposited data

Results flagged for a closer look

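The difference of the PS effect between heart and cerebrum passed the test for 4 transcript clusters, and each is named here for that reason. For Unc13c the PS effect was higher in heart by 1.50 on the log2 scale in cluster 10594969. The value was 1.48 in cluster 10594948 and 1.70 in cluster 10594967. The heart level of all 3 was below the filter of the heart comparison, so they were tested through cerebrum alone. For Stxbp4 cluster 10389795 the PS effect was higher in heart by 0.67, whereas the other Stxbp4 cluster, 10389797, did not pass. Groups of 3 arrays are too small for a check of single arrays against the rest of their group.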

How the results depend on the processing

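In cerebrum, the 13 member calls became 7 without the filter on low values, 7 with 1 cluster per gene and 0 with the replicate block, under which 0 of all transcripts passed. They ran from 0 to 23 when each array was left out. In heart, the 0 calls ran from 0 to 6 when arrays were left out, and were 1 without both arrays with high Myl7. For the difference of PS effects, the 4 calls became 2 with quantile normalization, 2 with 1 cluster per gene and 0 with the replicate block, and ran from 0 to 11 when arrays were left out. Tissue counts ran from 53 to 69 in PS mice and from 54 to 68 in MCT mice over the alternatives run, replicate block included. For single genes named in cerebrum, 72 values lost the threshold under an alternative, 6 gained it and 154 did neither. No called value changed sign. Apart from the fewer arrays, genes or added terms of these settings, the cause was not tested. Samples of equal replicate number had correlations of 0.101, -0.155 and -0.259 in cerebrum and -0.005, 0.09 and 0.147 in heart, which gives no sign of pairing between PS and MCT. Between tissues they were all positive, at 0.053 to 0.285, but in MCT mice the unequal pair of heart 1 and cerebrum 2 had 0.187. Xist was 3.32 in cerebrum PS 2 and 9.13 in heart PS 2, so as labelled these arrays did not look like 1 animal. For the other replicate numbers pairing between tissues is not settled. Signal over background cannot be judged from the deposited values.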

Other observations

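Among vesicle proteins outside the families described, 1 of 36 tested passed in the contrast of PS effects between tissues. The share was 1.52% of all tested transcripts, so the count carries no weight. The gene was Doc2b, a high-affinity calcium sensor linked to spontaneous release. Doc2b was 4.91, 5.28 and 5.12 in PS heart and 4.67, 4.45 and 4.43 in MCT heart. In cerebrum it was 6.36, 5.95 and 7.40 in PS and 7.61, 7.98 and 7.67 in MCT. The difference of the effects, heart minus cerebrum, was 1.77 ± 0.39 (SE, limma, adjusted p = 0.0463). PS arrays were all above MCT arrays in heart and all below them in cerebrum, where the difference did not pass. In heart its mean was below the filter, so it was not tested there and entered the contrast through cerebrum alone.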
